A study of Mus musculus with 4 samples.

Results

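Respiratory complex I, the NADH:ubiquinone oxidoreductase of the inner mitochondrial membrane, was followed through the transcripts of its nuclear-encoded subunits and of the factors that build it. The members were all genes whose symbol starts with Nduf, together with Timmdc1, Acad9, Ecsit, Foxred1, Nubpl and Tmem126b, which encode assembly factors. This gave 51 genes of the 23282 rows in each count table. They comprised 7 subunits of the catalytic core, 29 accessory subunits, 13 assembly factors, and Ndufa4 with its relative Ndufa4l2. The last 2 carry an Nduf symbol, but the Ndufa4 protein is a subunit of cytochrome c oxidase, so both were kept apart.

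The libraries came from primary pancreatic acinar cells of C57BL/6J mice, the exocrine cells that make digestive enzymes. One group received an adenovirus encoding estrogen-related receptor γ (ERRγ, gene Esrrg), a nuclear receptor known for its role in oxidative metabolism. The control group received an adenovirus encoding green fluorescent protein (GFP). Both groups were infected for 36 h at a multiplicity of 100 and kept in Waymouth's medium with 2.5% serum, trypsin inhibitor and 25 ng/ml epidermal growth factor. There were 2 libraries per group, and the labels give no age of the mice and do not say that the 2 libraries are from different mice or dishes. The p-values therefore measure the spread between these libraries, which may be technical and which the test estimates in part from other genes.

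Complex I oxidises NADH at the tip of an arm that reaches into the matrix. Electrons pass along a chain of iron-sulfur clusters to ubiquinone, and a membrane arm uses the energy to pump protons. The core subunits carry out this chemistry and are shared with the bacterial enzyme. The accessory subunits surround the core and are needed for its assembly and stability. Assembly factors join intermediates and leave before the enzyme is complete. The subunits of the membrane core that mitochondrial DNA encodes are not analysed here.

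Each library held between 10105604 and 11012351 counts. Values are CPM (counts per 1e6), with library sizes adjusted by the trimmed mean of M-values (TMM), and reads come from transcript ends, so that a level does not grow with transcript length. The gene carried by the virus, Esrrg, had 1453 and 12994 counts in ERRγ libraries 1 and 2, against 86 and 107 counts in GFP libraries 1 and 2. Of 11 acinar markers, the defining factor gene Ptf1a had no count in any library. The 11 together summed to 98.4 and 104 CPM with ERRγ, against 107 and 53.5 CPM with GFP, low values for genes that define the labelled cell type. Of the 9 that could be tested, the trypsinogen gene Prss2 rose, with 14.0 and 26.8 CPM with ERRγ against 3.79 and 2.15 CPM with GFP (adjusted p = 0.00905), and none fell. The 5 ductal markers summed to 1938 and 2410 CPM with ERRγ, against 2667 and 2683 CPM with GFP, and 1 of them passed the test upward and 1 downward. None of the markers of endothelial cells, leukocytes, fibroblasts or islets that could be tested passed it, although the 4 islet markers summed to 26.2 and 7.21 CPM with ERRγ, against 123 and 17.1 CPM with GFP. Rn45s, the pre-ribosomal RNA, made up 9.48% and 11.1% of counts with ERRγ, against 14.4% and 10.4% with GFP. The part of cell makeup and of Rn45s in the results was not tested, and in bulk RNA fewer cells of a type and less RNA per cell cannot be told apart.

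Complex I transcripts were higher in cells with ERRγ across most of the set. The 51 genes summed to 4343 and 4690 CPM with ERRγ, against 3220 and 3285 CPM with GFP. The 36 core and accessory subunits alone summed to 3884 and 4226 CPM with ERRγ, against 2904 and 2977 CPM with GFP. All 51 passed the filter on low counts. By edgeR's quasi-likelihood test, with Benjamini-Hochberg adjustment over the 13070 rows tested and a threshold of 0.05, 14 of the 51 rose and none fell, where 5.06% of all rows tested rose, 1.78% fell and 6.84% did either. At this threshold 27.5% of the members rose, and 12 of the 36 core and accessory subunits did (33.3%). The 14 include Ndufa4 of cytochrome c oxidase. The other 37 did not pass. The fitted log2 fold change was above 0 for 48 of the 51 genes and for 49.2% of all rows, and its median was 0.40 over the members and −0.01 over all rows. Both ERRγ libraries lay above both GFP libraries for 43 of the 51 genes, where this held for 27.4% of all rows, and no member showed the reverse, where this held for 26.6% of all rows.

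**Figure D1:**
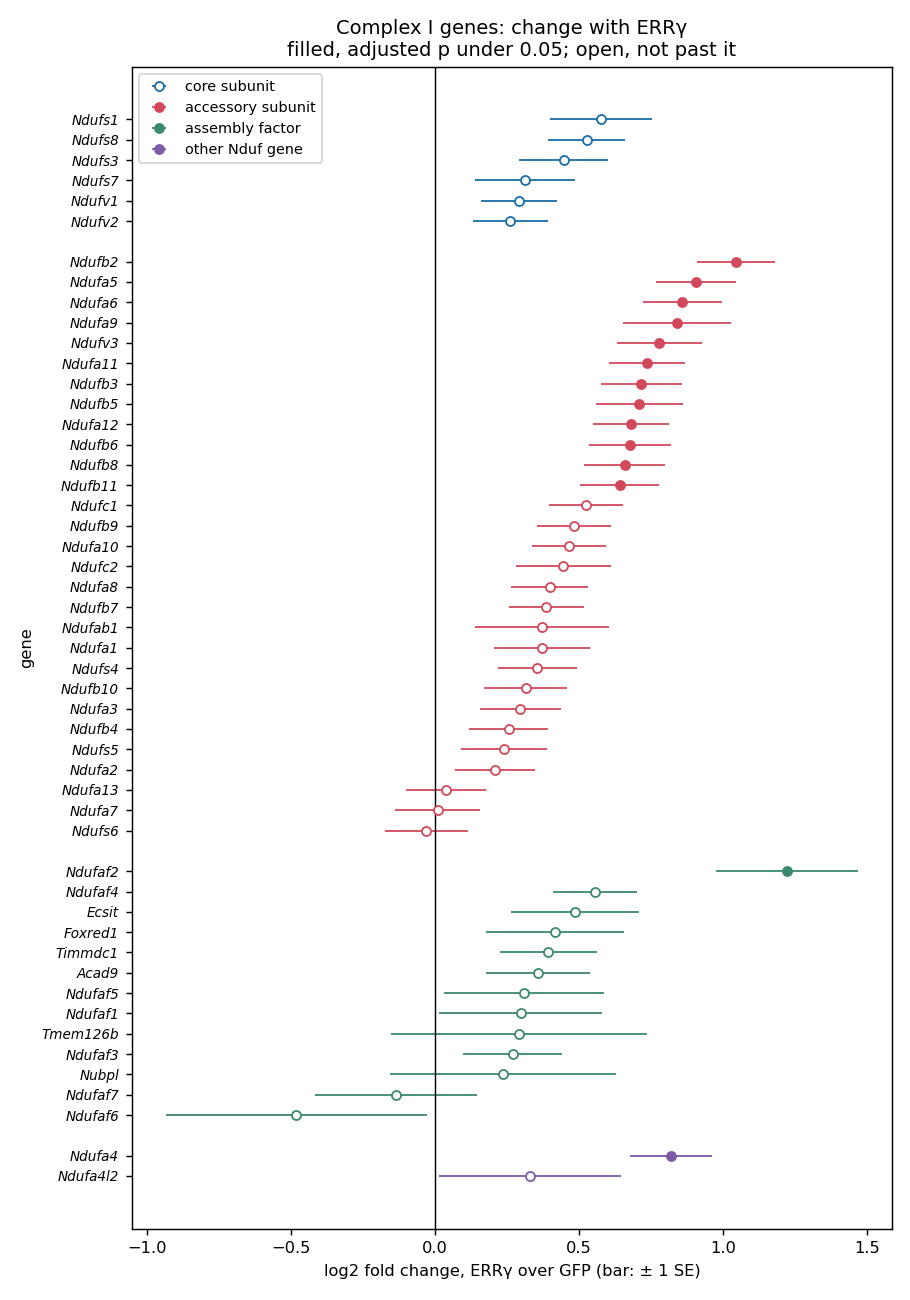
Log2 fold change of ERRγ over GFP for 50 of the 51 genes, by class, with bars of 1 standard error from the fit of 2 libraries per group. The 12 accessory subunits, Ndufaf2 and Ndufa4 that passed the threshold are filled, and the 6 core subunits drawn lie between 0.26 and 0.58.

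Leaving out 1 GFP library ended all 14 calls. The log2 fold changes of the 14 genes lay between 0.556 and 1.43 without GFP library 1, and between 0.616 and 1.07 without GFP library 2. Why the calls ended was not tested. Among all rows tested, too, fewer passed without a GFP library and more passed without an ERRγ library. Without ERRγ library 1, or without ERRγ library 2, all 14 kept their calls. In these 4 fits, and in the 7 other fits of all 4 libraries, each of the 14 genes stayed higher with ERRγ, with log2 fold changes of at least 0.556.

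The accessory subunits held most of the genes that rose. Of the 29, 12 passed the test upward and 17 did not pass, with a median log2 fold change of 0.46 and a range of −0.03 to 1.04. Over all rows tested 5.06% rose, and the median log2 fold change was −0.01. In the distal membrane arm, built with the Ndufb subunits, 6 of 10 genes rose (median 0.65). In the matrix arm 5 of 9 accessory genes rose (median 0.68). In the proximal membrane arm, next to the ubiquinone site, 1 of 9 rose (median 0.40). The difference between these groups of genes was not tested.

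In the distal arm, Ndufb2 (chromosome 6, 39592574 to 39603382, plus strand, GRCm38) had 66.9 and 69.8 CPM in the ERRγ libraries, against 32.4 and 33.8 CPM in the GFP libraries. Its fold change of 2.06 was the largest among the subunits (log2 fold change 1.04, SE 0.14, adjusted p = 0.00548). The libraries of each group lay close together and the groups were well apart. Ndufb3 (chromosome 1, 58586384 to 58595964, plus strand) had 164 and 189 CPM with ERRγ, against 102 and 112 CPM with GFP (1.64-fold, adjusted p = 0.0246). Ndufb5 (chromosome 3, 32736990 to 32751566, plus strand) had 102 and 122 CPM with ERRγ, against 64.4 and 72.9 CPM with GFP (1.63-fold, adjusted p = 0.0331). In both genes ERRγ library 2 was the highest of the 4 libraries and GFP library 1 the lowest. Ndufb6 (chromosome 4, 40270591 to 40279421, minus strand) had 70.2 and 81.1 CPM with ERRγ, against 47.7 and 46.9 CPM with GFP (1.60-fold, adjusted p = 0.0309). Ndufb8 (chromosome 19, 44548572 to 44555440, minus strand) had 211 and 191 CPM with ERRγ, against 118 and 136 CPM with GFP (1.58-fold, adjusted p = 0.0333). Ndufb11 (chromosome X, 20615326 to 20617619, minus strand) had 66.9 and 62.1 CPM with ERRγ, against 42.0 and 40.7 CPM with GFP (1.56-fold, adjusted p = 0.0326). For Ndufb8 and Ndufb11 it was ERRγ library 1 that was the higher of the ERRγ pair. The remaining genes of the distal arm were Ndufb4, Ndufb7, Ndufb9 and Ndufb10, with log2 fold changes between 0.26 and 0.48 and no overlap between groups. Both ERRγ libraries lay above both GFP libraries in 27.4% of all rows, too. Ndufb9, which belongs to the LYR family of proteins that bind the mitochondrial acyl carrier protein, came nearest to the threshold, with 141 and 141 CPM with ERRγ against 98.7 and 103 CPM with GFP (adjusted p = 0.0648).

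In the matrix arm, Ndufa5 (chromosome 6, 24518666 to 24528013, minus strand), an early partner of the ubiquinone-binding module, had 145 and 130.3 CPM with ERRγ, against 77.4 and 69.5 CPM with GFP (1.87-fold, adjusted p = 0.00981). Ndufa6 (chromosome 15, 82350140 to 82354322, minus strand), another LYR protein, had 200.5 and 225 CPM with ERRγ, against 112 and 122 CPM with GFP (1.81-fold, adjusted p = 0.0111). Ndufa9 (chromosome 6, 126821721 to 126849136, minus strand), which resembles short-chain dehydrogenases and helps to join the matrix and membrane arms, had 45.0 and 57.6 CPM with ERRγ, against 25.3 and 32.0 CPM with GFP (1.79-fold, adjusted p = 0.0371). Of these, Ndufa9 had the largest SE of the log2 fold change (0.19, against 0.14 for the others) and Ndufa6 the highest level. Ndufv3 (chromosome 17, 31520115 to 31531331, plus strand), a small subunit of the NADH-oxidising module, had 86.2 and 104 CPM with ERRγ, against 56.3 and 54.8 CPM with GFP (1.71-fold, adjusted p = 0.0216). Ndufa12 (chromosome 10, 94198720 to 94221443, plus strand), which takes its place late in assembly, had 166 and 186 CPM with ERRγ, against 111 and 109 CPM with GFP (1.60-fold, adjusted p = 0.0239). The GFP pairs of Ndufv3 and Ndufa12 were nearly equal, and ERRγ library 2 exceeded ERRγ library 1 in both.

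Not all of the matrix arm followed. Ndufs6, a zinc-binding subunit of the NADH-oxidising module and the accessory subunit with the lowest log2 fold change, had 109 and 128 CPM with ERRγ, against 126 and 116 CPM with GFP (adjusted p = 0.928 for a log2 fold change of −0.03, SE 0.14). Ndufa7 had 124 and 152 CPM with ERRγ, against 135 and 139 CPM with GFP (adjusted p = 0.980 for a log2 fold change of 0.01, SE 0.15). In these and in Ndufa13, also known as GRIM-19, of the proximal arm (0.04, SE 0.14), the groups overlapped. The log2 fold change of each changed sign when single libraries were left out, between −0.16 and 0.15 over the 3 genes. Ndufa2, the member with the highest level in both groups, had 236 and 275 CPM with ERRγ, against 222 and 219 CPM with GFP (log2 fold change 0.21, adjusted p = 0.417). Ndufs4, which is disrupted in a widely used mouse model of Leigh syndrome, had 109 and 116 CPM with ERRγ, against 82.6 and 93.9 CPM with GFP (log2 fold change 0.36, adjusted p = 0.173).

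**Figure D2:**
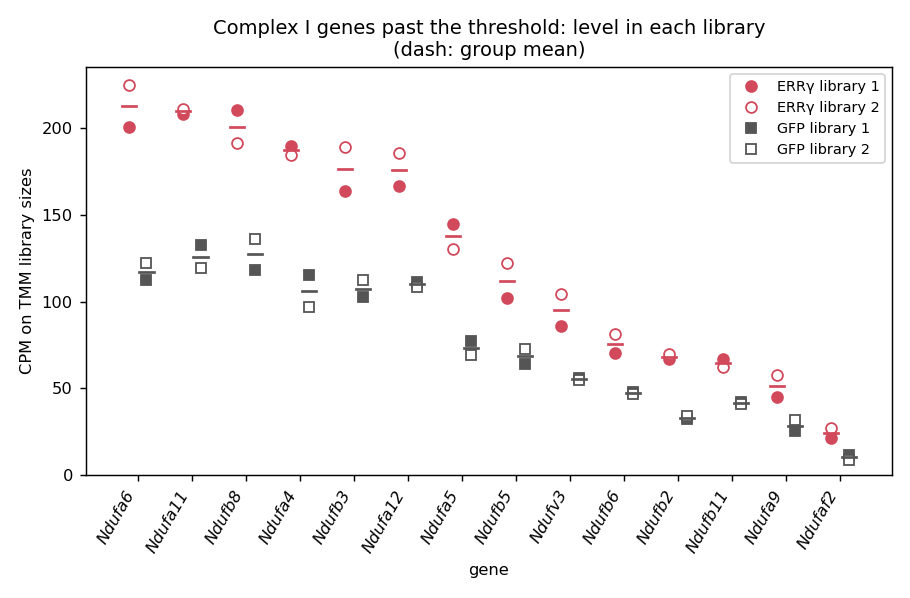
CPM in each library for the 14 genes that passed the threshold, ordered by their mean with ERRγ; circles are the ERRγ libraries, squares the GFP libraries and dashes group means. In each gene both circles lie above both squares, from Ndufa6 at 200.5 and 225 CPM with ERRγ to Ndufaf2 at 21.2 and 27.4 CPM.

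In the proximal membrane arm, Ndufa11 (chromosome 17, 56717767 to 56722141, plus strand), a membrane subunit that stabilises the membrane arm, had 208 and 211 CPM with ERRγ, against 132 and 119 CPM with GFP (1.67-fold, adjusted p = 0.0177). Its ERRγ libraries were nearly equal. The next in order were Ndufc1, with 114 and 119 CPM with ERRγ against 82.2 and 80.4 CPM with GFP (1.44-fold, adjusted p = 0.0526), and Ndufa10, a relative of nucleoside kinases (1.38-fold, adjusted p = 0.0749). Ndufc1 passed with DESeq2, with limma-voom and with the filter at 5 CPM, so its side of the threshold depends on the test. Ndufa1, Ndufa3, Ndufa8, Ndufc2 and Ndufs5 had log2 fold changes between 0.24 and 0.45. Their ERRγ libraries both lay above both GFP libraries, where this held for 27.4% of all rows. Ndufab1, the mitochondrial acyl carrier protein that occurs in both arms, had the lowest level of the accessory genes, 17.2 ± 1.90 CPM with ERRγ and 13.3 ± 2.02 CPM with GFP (SD, n = 2 each), and did not pass (log2 fold change 0.37, adjusted p = 0.387).

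Promoter windows are given to show what the sequence around the start of a gene holds. They cover the members with an ERR-binding motif and the members that rose and held the NRF1 motif described below. Members that rose without a match to these motifs are not shown. RefSeq windows on GRCm38.p6, from 250 bases before to 50 after a start site, matched 44 of the 51 genes. They were searched on both strands for AAGGTCA, the half-site bound by estrogen-related receptors, for its extended form TNAAGGTCA, which contains the half-site, and for the motif of NRF1, a regulator of nuclear genes for mitochondria (GCGC, any base, then TGCGC). The half-site was found in 3 of the 44 genes (6.82%), against 5.38% of all 27025 genes with a window and 4.10% of the 9868 that were also tested. The extended form was found in 1 of 44 (2.27%), against 1.43% of all genes and 0.94% of those tested. The NRF1 motif was found in 9 of 44 (20.5%), against 5.19% of all genes and 11.3% of those tested. Of the 14 genes that rose, 1 held the half-site, none the extended form and 3 the NRF1 motif. Matches are written in capitals, in the sequences of the gene's strand from 5′ to 3′, in which a match on the other strand reads as its reverse complement. A match is a description of the letters and not a site shown to be bound.

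Ndufb2 (chr6:39592315-39592614, plus strand) held the half-site 181 bases before its start. Ndufb4 (chr16:37654319-37654618, minus strand) was the gene with the extended form, 57 bases before the start, and with 3 NRF1 motifs. Ndufs5 (chr4:123718137-123718436, minus strand) held the half-site on the other strand and an NRF1 motif. Ndufa5 (chr6:24527641-24527940, minus strand, the outer of 2 windows), Ndufa6 (chr15:82354242-82354541, minus strand) and Ndufa11 (chr17:56717512-56717811, plus strand) were the genes that rose and held the NRF1 motif. The windows follow.
Ndufb2: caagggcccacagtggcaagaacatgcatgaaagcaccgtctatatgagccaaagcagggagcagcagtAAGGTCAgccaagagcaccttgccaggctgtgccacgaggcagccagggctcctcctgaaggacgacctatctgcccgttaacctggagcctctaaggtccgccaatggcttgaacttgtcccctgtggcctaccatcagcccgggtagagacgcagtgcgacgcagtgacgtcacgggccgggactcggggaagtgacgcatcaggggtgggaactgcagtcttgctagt
Ndufb4: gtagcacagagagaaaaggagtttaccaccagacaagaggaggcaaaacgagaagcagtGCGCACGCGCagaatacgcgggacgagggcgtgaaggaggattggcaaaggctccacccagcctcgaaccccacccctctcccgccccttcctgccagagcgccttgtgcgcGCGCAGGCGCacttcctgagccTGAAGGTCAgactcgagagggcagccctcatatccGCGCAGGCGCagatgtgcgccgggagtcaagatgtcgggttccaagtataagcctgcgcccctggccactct
Ndufs5: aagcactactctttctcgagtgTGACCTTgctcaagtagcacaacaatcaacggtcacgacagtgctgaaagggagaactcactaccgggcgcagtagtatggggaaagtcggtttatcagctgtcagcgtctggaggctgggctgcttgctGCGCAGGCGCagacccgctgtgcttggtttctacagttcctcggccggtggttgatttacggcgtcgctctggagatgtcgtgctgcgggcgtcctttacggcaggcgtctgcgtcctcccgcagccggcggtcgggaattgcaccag
Ndufa5: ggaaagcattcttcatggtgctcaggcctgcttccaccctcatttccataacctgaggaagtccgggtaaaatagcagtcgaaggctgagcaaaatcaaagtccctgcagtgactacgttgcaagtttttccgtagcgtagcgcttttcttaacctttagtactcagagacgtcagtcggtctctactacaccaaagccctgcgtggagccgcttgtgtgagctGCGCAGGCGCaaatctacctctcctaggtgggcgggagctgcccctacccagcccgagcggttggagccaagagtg
Ndufa6: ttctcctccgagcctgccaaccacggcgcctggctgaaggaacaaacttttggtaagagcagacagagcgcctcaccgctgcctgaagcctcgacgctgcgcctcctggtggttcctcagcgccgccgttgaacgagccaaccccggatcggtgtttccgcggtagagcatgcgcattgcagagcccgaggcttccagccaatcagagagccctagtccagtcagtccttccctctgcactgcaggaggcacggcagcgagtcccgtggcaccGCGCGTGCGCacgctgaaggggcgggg
Ndufa11: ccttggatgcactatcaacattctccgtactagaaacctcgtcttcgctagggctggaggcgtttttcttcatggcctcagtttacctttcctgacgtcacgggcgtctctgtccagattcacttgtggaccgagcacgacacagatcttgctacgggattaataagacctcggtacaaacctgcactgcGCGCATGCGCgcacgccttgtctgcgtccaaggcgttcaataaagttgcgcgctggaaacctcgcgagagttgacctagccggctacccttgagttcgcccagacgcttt

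Ndufb2, with 1 half-site in its window, rose 2.06-fold. Ndufb4 and Ndufs5, with the same letters in theirs, had log2 fold changes of 0.26 and 0.24 that did not pass (adjusted p = 0.311 and 0.384). Of the genes with the NRF1 motif, Ndufa5, Ndufa6 and Ndufa11 rose, and Ndufa8, Ndufaf4, Ndufaf5, Ndufb4, Ndufs5 and Ndufs6 did not pass.

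No subunit of the nuclear-encoded catalytic core passed the threshold, where 5.06% of all rows rose. In all 7 both ERRγ libraries lay above both GFP libraries, where this held for 27.4% of all rows. The log2 fold changes of the 7 core genes ran from 0.26 to 0.58, and their adjusted p-values from 0.0586 to 0.325. A p above the threshold does not show that these genes were unchanged, and their difference from the accessory subunits was not tested. Among the subunits of the NADH-oxidising module, Ndufv1, which binds NADH and its flavin, had 109.7 and 119 CPM with ERRγ, against 91.0 and 95.8 CPM with GFP (1.22-fold or 0.29 on the log2 scale, SE 0.13, adjusted p = 0.235). Ndufv2, an iron-sulfur protein beside it, had 99.9 and 98.3 CPM with ERRγ, against 85.9 and 79.4 CPM with GFP (0.26, SE 0.13, adjusted p = 0.280), the lowest log2 fold change of the core. Ndufs1 (chromosome 1, 63143596 to 63176833, minus strand), the largest subunit of this arm, had 87.0 and 77.6 CPM with ERRγ, against 46.8 and 63.6 CPM with GFP (0.58, SE 0.18, adjusted p = 0.0972). Ndufs1 had the largest fold change of the core, and its GFP libraries stood further apart than its ERRγ libraries.

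In the ubiquinone-binding module, Ndufs3, which starts the assembly of the module, had 51.7 and 63.7 CPM with ERRγ, against 42.5 and 42.3 CPM with GFP (0.45, SE 0.15, adjusted p = 0.132). For Ndufs3 the GFP pair was nearly equal and ERRγ library 2 was the highest. Ndufs7, which holds the last iron-sulfur cluster before ubiquinone, had 61.5 and 55.0 CPM with ERRγ, against 53.6 and 40.3 CPM with GFP (0.31, SE 0.17, adjusted p = 0.325). Ndufs8 (chromosome 19, 3908863 to 3912774, minus strand), another iron-sulfur protein, had 61.6 and 64.0 CPM with ERRγ, against 44.2 and 43.1 CPM with GFP (0.53, SE 0.13, adjusted p = 0.0586). Ndufs8 had tight pairs in both groups and the smallest adjusted p of the core. Ndufs1 and Ndufs8 passed when no filter on low counts was used (adjusted p = 0.0106 and 0.0292), with log2 fold changes of 0.57 and 0.52. That fit also called more of all rows. In it 1271 of 17888 rows rose and 738 fell, against 661 and 233 of 13070 with the filter.

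**Figure D3:**
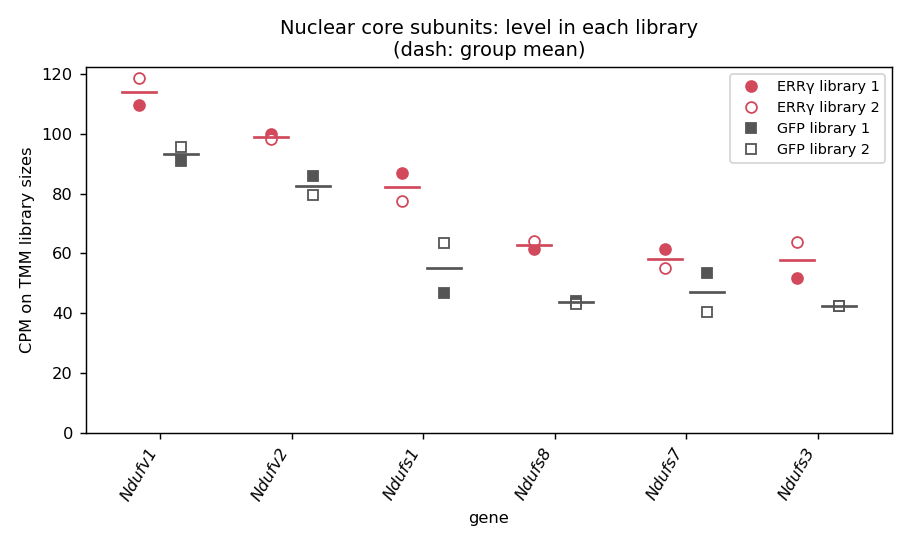
CPM in each library for 6 of the 7 nuclear core subunits; circles are the ERRγ libraries, squares the GFP libraries and dashes group means. The ERRγ libraries lie above the GFP libraries in each gene, by little for Ndufs7 (55.0 CPM in ERRγ library 2 against 53.6 CPM in GFP library 1).

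Among the 13 assembly factors, Ndufaf2 rose and the other 12 did not pass, where 5.06% of all rows rose. Ndufaf2 (chromosome 13, 108002715 to 108158623, minus strand) had 21.2 and 27.4 CPM with ERRγ, against 11.9 and 8.98 CPM with GFP. Its fold change of 2.33 was the largest of the 51 genes (1.22 on the log2 scale with an SE of 0.25, adjusted p = 0.0259). The log2 value lay between 1.03 and 1.43 with any single library omitted. The Ndufaf2 protein is a relative of Ndufa12 that holds the place of that subunit during late assembly, and both genes of the pair rose. The median log2 fold change of the 13 was 0.31, and 11 of them were above 0, as were 49.2% of all rows.

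Assembly factors were measured less precisely than subunits. Their mean levels lay between 4.17 and 55.9 CPM with ERRγ and between 3.45 and 38.1 CPM with GFP, and the median SE of their log2 fold change was 0.25, against 0.14 for the accessory subunits and 0.15 for the core. Ndufaf4, which works with Ndufaf3 on the early ubiquinone module, had 59.2 and 52.7 CPM with ERRγ, against 40.0 and 36.2 CPM with GFP (log2 fold change 0.55, adjusted p = 0.0635). Ndufaf3 had a log2 fold change of 0.27 (SE 0.17). The factors of the mitochondrial complex I intermediate assembly complex, which builds the membrane arm, were Ecsit (0.48), Acad9 (0.36), Ndufaf1 (0.30) and Tmem126b (0.29), and none of the 4 passed. Acad9 encodes a protein of the acyl-CoA dehydrogenase family. Timmdc1, which acts early on the membrane arm, had a log2 fold change of 0.39, Foxred1, an oxidoreductase-like factor, 0.42, and Nubpl, which is needed for iron-sulfur clusters of the enzyme, 0.24. Ndufaf5, which hydroxylates Ndufs7, had 0.31, and Ndufaf7, a methyltransferase, had −0.14 (SE 0.28). None of these genes passed.

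Ndufaf6 had the lowest log2 fold change of the assembly factors, with 7.32 and 3.06 CPM with ERRγ, against 8.39 and 6.19 CPM with GFP (−0.48, SE 0.45, adjusted p = 0.577). These values rest on 82 and 31 counts with ERRγ and 82 and 69 counts with GFP. One library set its direction, since the log2 fold change was −1.25 without ERRγ library 1 (adjusted p = 0.0476) and 0.0058 without ERRγ library 2.

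**Figure D4:**
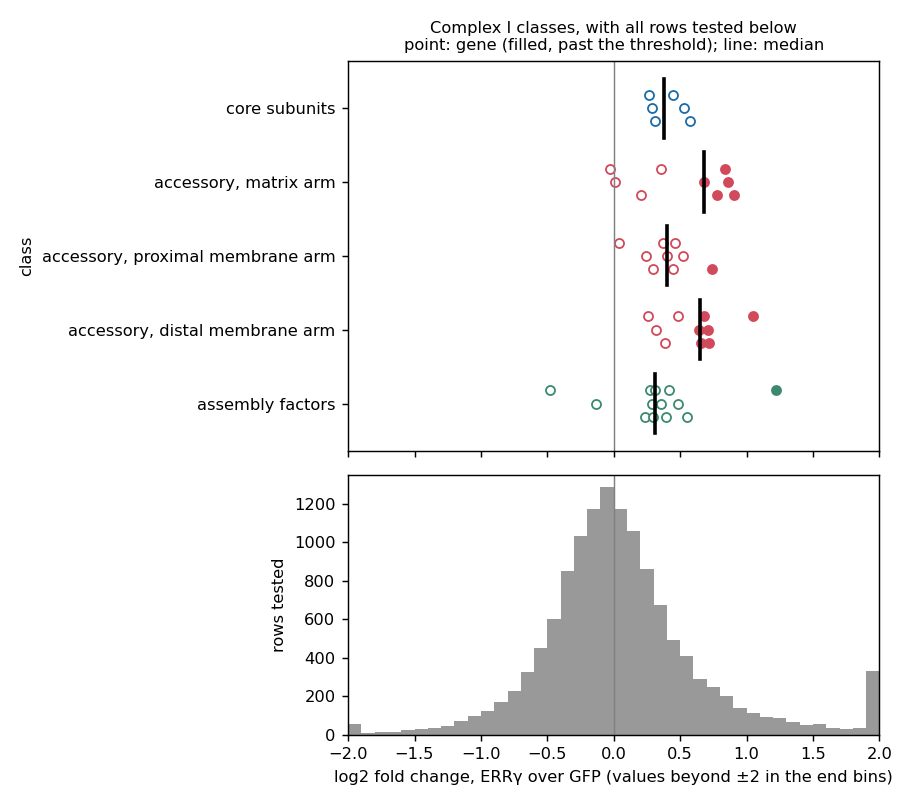
Log2 fold changes of the genes of each class (upper panel, with the median as a line) and of all 13070 rows tested (lower panel, number of rows per bin of 0.1). Class medians run from 0.31 for assembly factors to 0.68 for matrix-arm accessory subunits, to the right of the centre of all rows at −0.01; Ndufab1, Ndufa4, Ndufa4l2 and 1 core subunit are not drawn.

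Ndufa4 (chromosome 6, 11900292 to 11907497, minus strand), the cytochrome c oxidase subunit, had 189.9 and 185 CPM with ERRγ, against 115 and 96.9 CPM with GFP (1.77-fold, log2 fold change 0.82, SE 0.14, adjusted p = 0.0151). Its relative Ndufa4l2, which is known as a hypoxia-induced gene, had 8.03 and 12.3 CPM with ERRγ, against 7.37 and 8.80 CPM with GFP (adjusted p = 0.585 for a log2 fold change of 0.33, SE 0.32). The groups overlapped for Ndufa4l2, and omitting ERRγ library 2 brought its log2 fold change to −0.01. Shmt2 overlaps the last 500 bases of Ndufa4l2 on the other strand. Shmt2 had 110 and 134 CPM with ERRγ, against 76.2 and 87.9 CPM with GFP (log2 fold change 0.57, adjusted p = 0.0689). Whether Shmt2 reads entered the counts of Ndufa4l2 was not tested.

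The ERRγ libraries differed widely in Esrrg and far less in complex I transcripts. Esrrg stood at 129.6 and 1284 CPM in ERRγ libraries 1 and 2, against 8.80 and 9.60 CPM in the GFP libraries. Against the GFP mean, the median member was 0.39 higher on the log2 scale in ERRγ library 1 and 0.48 higher in ERRγ library 2. For comparison, the median over members of the log2 ratio of library 2 to library 1 was 0.11 for the ERRγ pair and 0.01 for the GFP pair, and 35 of the 51 genes were higher in ERRγ library 2 than in library 1, where this held for 49.4% of all rows. The largest difference within the ERRγ pair was that of Ndufaf6 (−1.26), and among complex I subunits the largest was that of Ndufa1 (0.41). With 2 libraries, a relation between the level of Esrrg and that of a member cannot be tested.

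**Figure D5:**
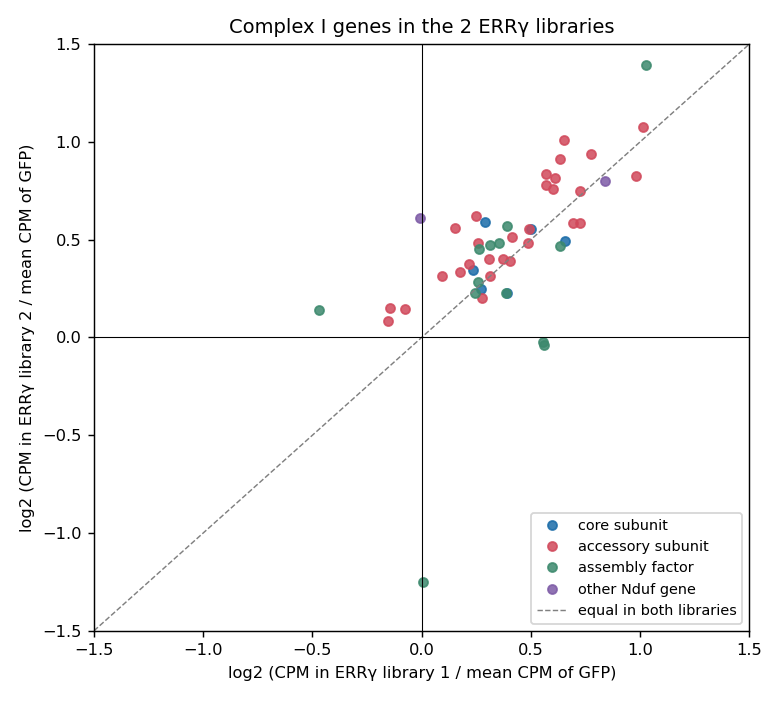
Log2 ratio of the CPM in ERRγ library 2 (vertical) and in ERRγ library 1 (horizontal) to the mean CPM of the GFP libraries, 1 point per gene, for 50 of the 51 genes. Most points lie in the upper right part of the plot near the dashed line of equal values, and Ndufaf6 lies apart at the bottom.

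Genes that act beside complex I were taken from a list of 21 tested genes, of which 2 rose (9.52%, against 5.06% of all rows) and none fell (1.78% of all rows), with a median log2 fold change of 0.33. Both ERRγ libraries lay above both GFP libraries for 12 of the 21 and below them for 3, where this held for 27.4% and 26.6% of all rows. Both genes that rose belong to the 8 of further assembly and membrane insertion. Aifm1, which encodes the apoptosis-inducing factor of the intermembrane space, had 82.5 and 86.0 CPM with ERRγ, against 36.7 and 41.2 CPM with GFP (2.16-fold, adjusted p = 0.00481). Chchd4, which encodes its partner in the import and oxidative folding of intermembrane-space proteins, had 65.8 and 69.7 CPM with ERRγ, against 32.5 and 35.3 CPM with GFP (2.00-fold, adjusted p = 0.00690). Both calls ended without GFP library 1 (adjusted p = 0.0990 and 0.122) or GFP library 2 (0.0574 and 0.0811). Known substrates of this import route include Ndufa8, Ndufb7, Ndufb10 and Ndufs5, whose log2 fold changes were 0.40, 0.39, 0.31 and 0.24 and did not pass. None of the 10 genes of other routes of electrons to ubiquinone passed. Their log2 fold changes ran from −0.22 for Gpd2, the mitochondrial glycerol-3-phosphate dehydrogenase, to 0.66 for Etfdh, which passes electrons from fatty acid oxidation, with a median of 0.36. Both ERRγ libraries lay above both GFP libraries for 7 of these 10 genes, including Sdha, Sdhb, Sdhc and Sdhd of complex II, and below them for Gpd2. The NAD(P)H-oxidising enzyme genes Nnt (−0.43, adjusted p = 0.106) and Nqo1 (−0.87, adjusted p = 0.0963) had lower values with ERRγ in both libraries, Aifm2 (0.39, adjusted p = 0.355) had higher values in both, and none of the 3 passed. The row 1810043H04Rik, an older symbol of the assembly factor gene Ndufaf8 per RefSeq, lay outside the symbols that chose the members and had 57.4 and 52.8 CPM with ERRγ, against 55.2 and 62.3 CPM with GFP (adjusted p = 0.745 for a log2 fold change of −0.09, SE 0.14).

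Reads of neighbouring genes could enter some counts, as the use of strand is not given in the sources used here. Among all 51 members, 18 overlap another coding gene in GENCODE M21, and 9 do so within their last 500 bases. Of the 14 genes that rose, 7 overlap another coding gene, and 3 of them do so within their last 500 bases: Ndufb2 with Braf on the other strand, Ndufb8 with Gm20538 on the same strand, and Ndufb6 with Smim27 on the other strand. The members that did not pass and overlap there are Foxred1, Ndufa13, Ndufa2, Ndufa3, Ndufa4l2 and Ndufaf3. Ndufb2 also overlaps Gm42420 on the same strand. Among the last 100 bases of 1 transcript for each of the 51 genes, those of Ndufb6 matched another annotated gene, again Smim27, at 95% identity or more over at least 90 bases.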

How the data were processed

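Transcript-end libraries had been made from 500 ng of total RNA with a Lexogen QuantSeq kit, per the labels' protocols. For each library the authors deposited raw counts by gene symbol, not normalized. Per the submitters' processing notes, Bowtie2, edgeR and mm10 were used; which counter, annotation and strand setting, and how multiply matching reads were handled, is not given in the sources used. The ERRγ libraries held 10480878 and 10645277 counts and the GFP libraries 10105604 and 11012351. PCR reads without molecular identifiers are not independent molecules, so depth speaks for counting error only.

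The test was that of edgeR 4.0.16 (R 4.3.3), fitted to all 4 libraries: filterByExpr with a minimum count of 10 (13070 rows kept), TMM, group as the only term, 2 residual degrees of freedom, glmQLFit with a prior count of 0.125, glmQLFTest, two-sided, adjusted by Benjamini-Hochberg. SE was taken as the absolute log2 fold change divided by the square root of F. The test was tried on simulated data with known changes, in which genes of like level shared the same spread. How well it recovered those changes is not reported here. Alternatives used DESeq2 1.42.0, limma 3.58.1, other scalings and filters, a replicate block and the omission of each library. Positions are from GENCODE M21 (GRCm38) for 51 of 51 genes, and promoters from RefSeq. Values per library are given for the core except 1 subunit that is not reported here, for every member that passed, for the lowest of each class and for Ndufa4 and Ndufa4l2; others named beyond ranges were chosen after their values were seen. The members and lists were chosen with earlier results of these data known.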

Additional observations from a re-analysis of the deposited data

How the results depend on the processing

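All 14 members that rose, Ndufa4 included, kept their calls in the 7 other fits of all 4 libraries: RLE factors, library totals, no filter, a filter at 5 CPM, DESeq2, limma-voom and a replicate block. The block of replicate numbers gave 14 members higher and none lower (776 and 315 of all rows); the labels do not pair the libraries, and the correlation of deviations of the libraries numbered 1 was 0.00744 over 13070 rows. When 1 library was left out, between 0 and 23 members passed upward and between 0 and 1 downward (Ndufaf6), against 14 and 0, and between 92 and 1597 of all rows rose and between 7 and 1098 fell, against 661 and 233. Without a filter 1271 rows rose and 738 fell, and 20 members rose, since Ndufa10, Ndufaf4, Ndufb9, Ndufc1, Ndufs1 and Ndufs8 joined; the cause was not tested. The median log2 fold change of the assembly factors was 0.36 with the filter at 5 CPM, which drops 2 members, and between 0.25 and 0.42 with 1 library left out; the accessory median stayed between 0.41 and 0.55. Ndufa7, near 0, was at −0.0009 without a filter. With 1 library left out, the log2 fold change changed sign for Ndufa13 (−0.08 to 0.146), Ndufa4l2 (−0.0135 to 0.609), Ndufa7 (−0.15 to 0.149, and −0.02), Ndufaf1 (lowest −0.0231), Tmem126b (−0.0416 to 0.610), Ndufaf6 (−1.25 to 0.0058), Ndufaf7 (−0.472 to 0.14) and Ndufs6 (−0.157 to 0.0849, and 0.03). None of these genes passed the threshold with all 4 libraries. A library left out leaves 1 sample in its group, which is assumed to vary like the other group. The lowest count of an assembly factor in a library was 27, and of a core subunit 415; how much of the SE depth accounts for was not tested.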
